A study of Mus musculus with 2 samples.

Results

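Some H3K27ac summits lie where the ends of neighbouring genes come so close that 1 acetylated region belongs to both. In the WT list, 790 of 10460 summits on chromosomes 1 to 19 and X lay within 1 kb of the outer ends of 2 or more different protein-coding genes. These shared-end summits touched 2 genes in 775 cases and 3 genes in 15. They fell on 771 different gene sets and reached 1545 genes. A summit is the position of highest signal in a called peak, deposited as 1 bp with a score, and a gene's outer ends are the first and last base of its RefSeq record.

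The study profiled acetylation of lysine 27 of histone H3 (H3K27ac) by CUT&Tag, in which an antibody brings a transposase to marked chromatin and the cut fragments are sequenced. The Tle4cKO group was Tle4f/f Lyz2-Cre, in which a floxed Tle4 gene meets a Cre recombinase driven by the lysozyme gene Lyz2. The WT group carried Lyz2-Cre without a floxed Tle4. Both groups therefore carry the Cre, whose promoter is active in macrophages, monocytes and neutrophils. All mice were C57BL/6 males aged 11.1 weeks, and no treatment was given. Macrophages of the colon negative for Siglec-F, low for Ly6C and positive for CD64 were sorted from 4 mice of each genotype and pooled, which leaves 1 library per genotype. There is no replicate, so no p-value is given and every interval below covers counting error only. The lists themselves differ in length, with 2341 Tle4cKO and 10460 WT summits. A summit of 1 list with none of the other list within 500 bp was not called there, and fewer marked cells, less acetylation per cell and fewer reads cannot be told apart.

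Acetylation of this lysine is laid down by the acetyltransferases p300 and CBP and marks active promoters and enhancers. At a promoter the mark sits on the nucleosomes that flank the open stretch where transcription starts. In a head-to-head pair, the starts of a minus-strand and a plus-strand gene face away from each other across a short stretch of DNA, and many such bidirectional promoters are rich in CpG and lack a TATA box. Mammalian head-to-head pairs are known to be rich in housekeeping genes, those for DNA repair and mitochondria among them. Tle4 belongs to the Groucho family of corepressors, which bind no DNA themselves and are recruited by transcription factors.

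The sequences that lie between the starts of head-to-head pairs are shown for 6 summits that were called in both libraries and for 6 that were called in WT alone. They let a reader see what such a stretch holds. Taken were the highest WT scores of each class among named pairs whose genes do not overlap and start at most 250 bp apart. The shortest gaps were left out too, so the lengths say nothing about head-to-head pairs in general. Each runs on the plus strand from the start of the minus-strand gene, named first, to the start of the plus-strand gene, both bases included, and comes from the RefSeq promoter table of GRCm38.p6. Capitals mark matches on either strand to short letter strings of promoter-binding factors: GGGCGG (the GC box bound by SP and KLF factors), GCATGCG (NRF1), CCAAT (NF-Y), CCGGAAG (ETS factors) and GAGGAAG (the ETS factor PU.1). With a Tle4cKO summit within 500 bp:
Fkbp3–Fancm, chr12:65073938-65074110: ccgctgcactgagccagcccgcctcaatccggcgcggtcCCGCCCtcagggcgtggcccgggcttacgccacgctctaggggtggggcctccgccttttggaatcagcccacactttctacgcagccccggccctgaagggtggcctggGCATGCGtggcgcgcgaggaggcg
Cwc27–Srek1ip1, chr13:104817110-104817170: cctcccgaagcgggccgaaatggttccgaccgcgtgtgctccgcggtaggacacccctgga
Taf6–Cnpy4, chr5:138187451-138187535: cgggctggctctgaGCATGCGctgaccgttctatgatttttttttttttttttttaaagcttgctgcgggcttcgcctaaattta
Mrpl46–Mrps11, chr7:78783089-78783131: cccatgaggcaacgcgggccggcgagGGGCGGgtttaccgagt
Mrps18b–Ppp1r10, chr17:35916440-35916512: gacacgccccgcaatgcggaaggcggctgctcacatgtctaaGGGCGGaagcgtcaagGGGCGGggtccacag
Lyrm4–Fars2, chr13:36117357-36117428: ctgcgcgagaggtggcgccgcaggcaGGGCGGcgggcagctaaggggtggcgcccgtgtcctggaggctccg

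Called in WT with no Tle4cKO summit within 500 bp:
Nfkbib–Sirt2, chr7:28766644-28766752: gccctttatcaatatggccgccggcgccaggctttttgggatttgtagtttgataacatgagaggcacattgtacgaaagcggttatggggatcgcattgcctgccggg
Pus7l–Irak4, chr15:94543534-94543613: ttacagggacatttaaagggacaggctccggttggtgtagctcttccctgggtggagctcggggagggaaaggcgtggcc
Fam162a–Ccdc58, chr16:36071561-36071660: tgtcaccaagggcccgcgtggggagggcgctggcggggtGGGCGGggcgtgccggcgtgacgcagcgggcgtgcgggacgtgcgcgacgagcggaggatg
Fam126b–Ndufb3, chr1:58586333-58586397: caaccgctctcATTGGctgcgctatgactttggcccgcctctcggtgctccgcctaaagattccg
Slc35a5–Atg3, chr16:45158673-45158829: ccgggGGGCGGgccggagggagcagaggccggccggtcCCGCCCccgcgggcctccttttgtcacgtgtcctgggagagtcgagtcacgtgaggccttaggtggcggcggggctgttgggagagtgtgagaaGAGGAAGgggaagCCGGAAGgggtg
Cmc4–Brcc3, chrX:75416584-75416628: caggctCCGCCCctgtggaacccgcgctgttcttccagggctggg

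These stretches were 43 to 173 bases long, a range bounded by the choice of pairs by gap. GC boxes occurred in 4 of the 6 stretches called in both and in 3 of the 6 called in WT alone. The stretch between Taf6 and Cnpy4 held a run of T and had 42.4% G and C, while that between Fam162a and Ccdc58 had 79% and 17 CpG. The Slc35a5 and Atg3 stretch held the single ETS and the single PU.1 match among the 12. A match is a run of letters and not a measured binding site.

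Of the 790 shared-end summits, 212 had a partner, that is a Tle4cKO summit within 500 bp (26.8%, 95% interval 23.8 to 30.1%), against 17.9% of all WT summits. WT summits at the ends of 1 gene had one in 770 of 3564 cases (21.6%, 20.3 to 22.99%). The difference between shared-end and single-gene summits was 5.23 percentage points (95% interval 1.87 to 8.73), beyond counting error. In gene bodies the share was 14.4% (13.2 to 15.5%) and between genes 15.0% (13.6 to 16.5%). Most shared-end summits, 578 of them, thus had no called counterpart in Tle4cKO. For 15 of these the nearest Tle4cKO summit lay over 500 bp but within 5 kb, and for 563 it lay farther away.

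How the gene ends were arranged went with the share called in Tle4cKO. Strand was taken from the RefSeq promoter table, which lacks chromosome 18 and covers 17273 of 21627 genes. By the end nearest the summit, 509 shared-end summits lay at head-to-head starts, 77 at a start beside another gene's 3′ end, 12 at starts on 1 strand and 8 at ends beside ends. In 184 the strand of a gene was not known. Head-to-head summits had a Tle4cKO partner in 149 cases (29.3%, 25.4 to 33.4%), against 623 of 2838 summits at a single gene start (21.95%, 20.4 to 23.5%). A start beside a 3′ end had a partner in 12 of 77 cases (15.6%, 8.32 to 25.6%), and the upper bound of that interval just reached the lower bound of the head-to-head one. Summits near the 3′ end of a single gene were called again in 13 of 106 cases (12.3%, 6.69 to 20.1%). Of the starts on 1 strand 1 of 12 had a partner, and of the ends beside ends 1 of 8. The 184 of unknown strand had one in 49 cases (26.6%, 20.4 to 33.6%).

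**Figure D1:**
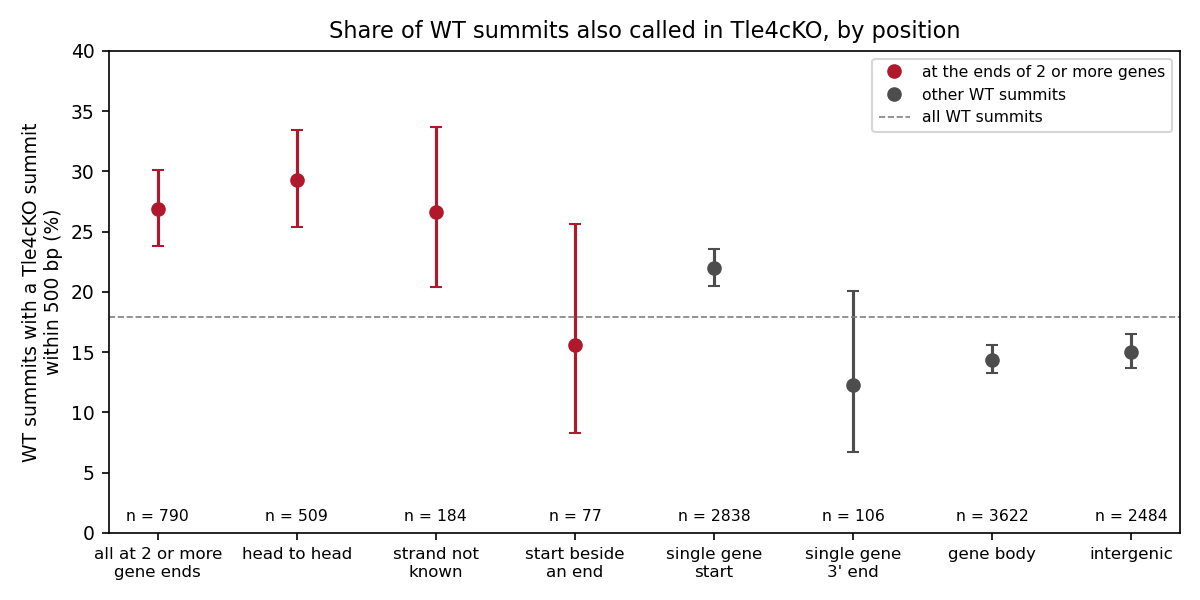
Share of WT summits (%) with a Tle4cKO summit within 500 bp, by where the WT summit lies; points are shares, bars exact 95% intervals that cover counting error only, n the number of summits, and the dashed line all WT summits (17.9%). Head-to-head summits stand at 29.3% and summits at a single gene start at 21.95%, while a start beside an end stands at 15.6%.

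Shared-end summits scored somewhat higher than other WT summits. The score is the authors' −log10 value for each peak and orders summits within 1 list; where a Tle4cKO and a WT score stand side by side below, each is that peak's own value and no difference between them is read. The median WT score of the shared-end summits was 5.29 (quartiles 3.98 and 7.61, range 1.81 to 28.5), against 4.99 at the ends of 1 gene and 4.42 for all WT summits that are not shared-end ones. The difference in medians from single-gene ends was 0.30 (95% interval 0.07 to 0.58). Head-to-head summits had a median of 5.65 and those at a start beside an end 4.46. None of the 50 highest WT summits was a shared-end summit. Of the first 100 WT summits 4 were, all of them with a Tle4cKO partner, and of the first 500 there were 72, 56 of them with a partner. Shared-end summits made up 7.55% of the whole WT list. High-scoring summits at the ends of 1 gene were called again often too. At WT scores of at least 10, 64.1% of these had a partner, against 70.2% of shared-end summits.

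A high WT score went with being called in Tle4cKO. Shared-end summits with a partner had a median WT score of 7.69 (quartiles 5.56 and 10.7), against 4.75 (3.63 and 6.48) for those without, and the ranges overlapped widely. The partners themselves had a median Tle4cKO score of 4.31 (quartiles 3.28 and 5.85, range 1.76 to 16.9). Over the 212 pairs of partners, which all come from the same 2 libraries, the order of the Tle4cKO scores and the order of the WT scores had a Spearman correlation of 0.43.

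The higher share among shared-end summits was smaller once WT score was held alike. All WT summits were cut into 10 score classes of equal size (deciles). The highest decile held 18.9% of the shared-end summits and 14.03% of those at the ends of 1 gene. In it, 93 of 149 shared-end summits (62.4%, 54.1 to 70.2%) and 279 of 500 single-gene summits (55.8%, 51.3 to 60.2%) had a Tle4cKO partner. Shared-end summits had the higher share in 6 of the 10 deciles, and in each decile the intervals overlapped. Weighted to the score deciles of the shared-end summits, the single-gene share was 24.02%, which leaves a difference of 2.82 points. For head-to-head summits against single gene starts the same weighting left 29.3% against 25.3%, with the head-to-head share higher in 8 of 10 deciles. No interval was computed for the weighted differences, so whether either exceeds counting error was not tested.

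**Figure D2:**
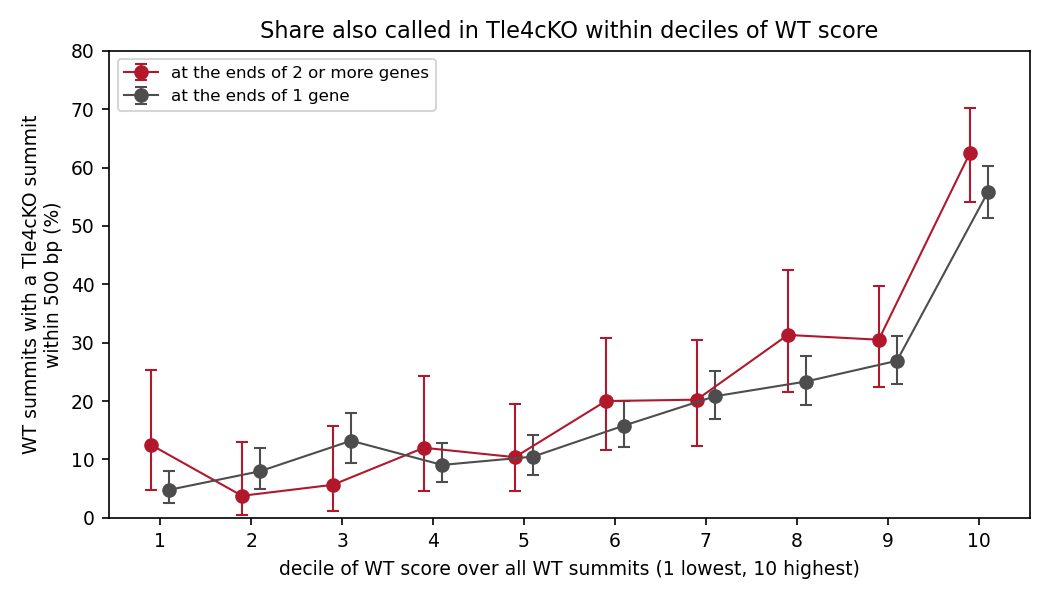
Share of WT summits (%) with a Tle4cKO summit within 500 bp in each decile of WT score, for summits at the ends of 2 or more genes and at the ends of 1 gene; bars are exact 95% intervals that cover counting error only. Both curves climb to the highest decile, 62.4% and 55.8%, and their intervals overlap in every decile.

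Where both libraries had a summit, the positions lay close. The median distance between Tle4cKO and WT partners was 102 bp (quartiles 27 and 219.8 bp), and 104 of the 212 pairs (49.1%) lay within 100 bp. Cdc45 and Ufd1 on chromosome 16, a replicative helicase factor and a cofactor of the p97 unfoldase, had their Tle4cKO and WT summits at the same base, 18812270.

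Seen from the shorter Tle4cKO list, most shared-end summits had a counterpart. Of the 233 Tle4cKO summits at 2 or more gene ends, 209 had a WT partner (89.7%, 85.1 to 93.3%), against 79.7% of all Tle4cKO summits and 86.7% (84.3 to 88.8%) of those at the ends of 1 gene. Shared-end summits made up 9.95% (8.77 to 11.2%) of the Tle4cKO list and 7.55% (7.05 to 8.08%) of the WT list. That order depended on how deep the WT list runs. Among the 2341 highest WT summits the share was 12.3%, above the 9.95% of the Tle4cKO list.

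The same pair of summits led the shared-end summits of both lists. The summit between Ddx54, a nucleolar RNA helicase, and Rita1, which in human cells binds the Notch effector RBPJ, ranked 78 in the Tle4cKO list and 57 in the WT list. It lay at position 120612865 of chromosome 5, between starts 493 bp apart, and the Tle4cKO summit lay 54 bp away. The summit of Cspp1, a centrosome protein, and Cops5, the catalytic subunit of the COP9 signalosome, ranked 75 in Tle4cKO and 69 in WT, at 10038024 of chromosome 1.

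Ranks count within lists of unequal length, 2341 Tle4cKO and 10460 WT summits, and are not compared between them. Cpsf7, a factor of pre-mRNA 3′ processing, and Sdhaf2, an assembly factor of succinate dehydrogenase, start 14 bp apart on chromosome 19. Their summit had a Tle4cKO score of 6.97 (rank 353) and a WT score of 20.3 (rank 91). Nsun2, an RNA cytosine methyltransferase, and Srd5a1, a steroid reductase, had a Tle4cKO score of 6.72 and a WT score of 20.02. Polr1a, the largest subunit of RNA polymerase I, and Ptcd3, a protein of the mitochondrial ribosome, had a Tle4cKO score of 7.46 and a WT score of 18.5. Taf6, a subunit of the general transcription factor TFIID, and Cnpy4, a chaperone of Toll-like receptors, ranked 913 in Tle4cKO and 138 in WT. Cdipt, the phosphatidylinositol synthase, and Cdiptos ranked 1510 in Tle4cKO and 143 in WT.

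Fkbp3, an immunophilin, and Fancm, a DNA translocase of the Fanconi anemia pathway, share the 173 bases printed above. Their summit had a Tle4cKO score of 9.14 (rank 181) and a WT score of 18.2 (rank 116), and it lay inside Fkbp3, 122 bp past its start. Cwc27, a cyclophilin of the spliceosome, and Srek1ip1 start 60 bp apart, and their Tle4cKO and WT summits lay 2 bp apart. Tada3, a subunit of coactivator acetyltransferase complexes, and Arpc4, a subunit of the actin-nucleating Arp2/3 complex, had a Tle4cKO score of 4.94 and a WT score of 15.8. At 54950870 of chromosome 9 a summit touched 3 gene ends, those of AY074887, the proteasome gene Psma4 and Hykk, with a Tle4cKO score of 4.99 and a WT score of 15.1.

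Among the 5 shared-end summits with the highest Tle4cKO scores, 3 further pairs followed Cops5 and Ddx54. Rpn2, a subunit of the oligosaccharyltransferase, and Mroh8 overlap at their starts (-594 bp), and their summit ranked 137 in Tle4cKO and 456 in WT. Cops2, another COP9 subunit, and Galk2, a sugar kinase, start 27 bp apart. Theirs ranked 166 in Tle4cKO and 1603 in WT. Mpst and Tst, neighbouring genes for sulfurtransferases, ranked 167 in Tle4cKO and 296 in WT. Partners also occurred at the bottom of the WT list: Dnajb4, a co-chaperone, and Fubp1 had a WT rank of 9892, with a Tle4cKO rank of 970.

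**Figure D3:**
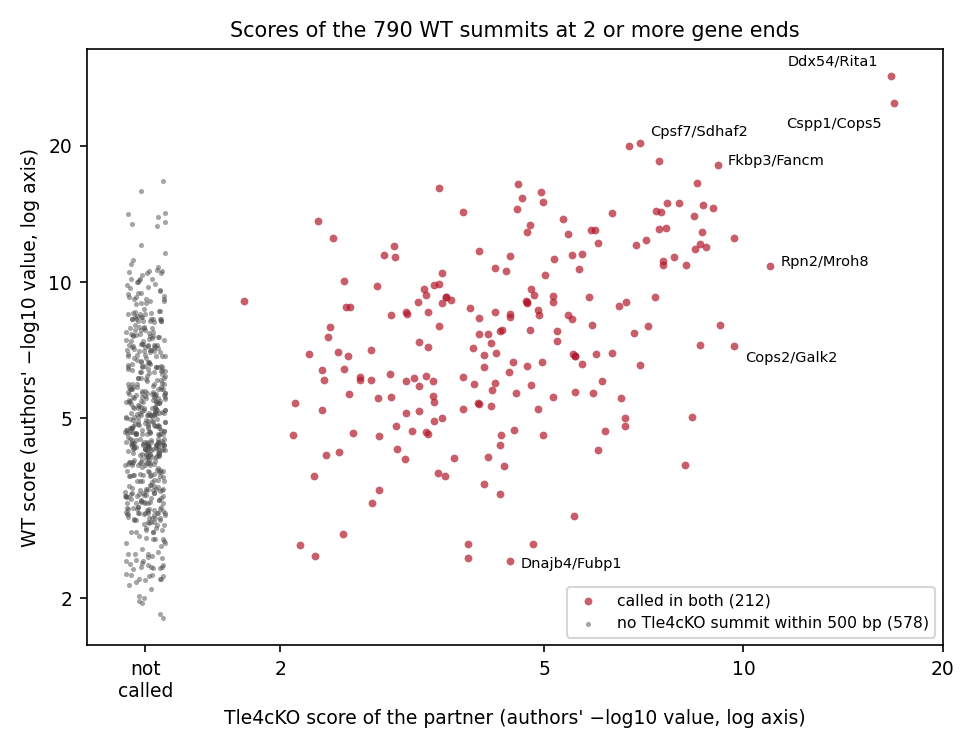
Scores (authors' −log10 values) of the 790 WT shared-end summits, with the Tle4cKO score of the partner on the horizontal axis and the WT score on the vertical axis, both log axes; the 578 summits with no Tle4cKO summit within 500 bp stand in the column at the left, spread sideways for legibility. The scores of the 212 partners had a Spearman correlation of 0.43, and no summit in the left column exceeds a WT score of 16.7.

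The highest WT shared-end summits that were not called in Tle4cKO ranked between 134 and 444 in the WT list. At the head was Nhej1, a factor of DNA end joining, beside Slc23a3, at rank 134 of the WT list, with the nearest Tle4cKO summit 336823 bp away. Copa encodes part of the vesicle coat COPI, and Ncstn a component of gamma-secretase, which cleaves Notch. The distance between their starts was -260 bp, so the genes overlap, and their WT summit, rank 151, lay inside the overlap, 25 bp from a start. Fen1, the flap endonuclease of DNA replication, and Tmem258, a subunit of the oligosaccharyltransferase, also overlap (-191 bp), and their WT summit had rank 199. Myl12a, a myosin light chain, and Myom1, a muscle structural protein, start 799 bp apart, and their WT summit of 14.1 lay 172 bp inside Myl12a.

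Pairs with a part in signalling and in metabolism were among them. Nfkbib, an inhibitor of NF-kB, and Sirt2, an NAD-dependent deacetylase, start 108 bp apart and had WT rank 208. The nearest Tle4cKO summit lay 590843 bp away. Irak4, which relays Toll-like receptor signals, and Pus7l, a pseudouridine synthase homologue, start 79 bp apart and had WT rank 337, with 1249025 bp to the nearest Tle4cKO summit. Mier1, a corepressor that binds histone deacetylases, beside Wdr78 had a WT score of 13.4. Bckdha, a subunit of the branched-chain ketoacid dehydrogenase, and Exosc5, of the RNA exosome, had a WT score of 13.3, midway between starts 371 bp apart. Ctns, the lysosomal cystine transporter, and Shpk, sedoheptulokinase, start 17 bp apart and scored 11.6 in WT. The Golgi SNARE gene Stx5a shared a WT summit of 10.9 with 1700092M07Rik and Wdr74, and there a Tle4cKO summit lay 5552 bp away. The lowest WT score of a shared-end summit, 1.81, lay at Atl1 and Map4k5.

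Of the 15 summits at 3 gene ends, 4 had a Tle4cKO partner (26.7%, 7.79 to 55.1%). Beside Psma4, these included Ak6, Taf9 and Rad17 on chromosome 13, with a Tle4cKO score of 7.55 and a WT score of 10.9, and Cab39l, Gm45935 and Setdb2, with 3.87 in Tle4cKO and 8.77 in WT. Taf9 is another TFIID subunit and Rad17 a loader of a DNA damage checkpoint clamp. On the X chromosome, Cmc4, Mtcp1 and Brcc3 shared a WT summit of 8.72 that was not called in Tle4cKO. X held 12 shared-end summits, 2 of them with a partner. The share with a partner ran from 9.62% on chromosome 17 (5 of 52, 3.20 to 21.03%) to 50% on chromosome 18 (6 of 12, 21.1 to 78.9%), and it was 44.7% (17 of 38, 28.6 to 61.7%) on chromosome 13. The intervals of chromosomes 13 and 17 did not overlap, but these are the extremes of 20 chromosomes.

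Position within the pair was examined for the 509 head-to-head summits. The distance between the starts had a median of 55 bp (quartiles -63 and 153), a negative value meaning that the genes overlap. Starts overlapped at 163 summits (32.0%), lay 0 to 100 bp apart at 168 (33.0%) and over 100 and up to 250 bp apart at 102 (20.04%). The share with a Tle4cKO partner was 26.4% (19.8 to 33.8%) for overlapping starts, 31.0% (24.1 to 38.5%) for 0 to 100 bp and 30.4% (21.7 to 40.3%) for over 100 and up to 250 bp. With over 250 and up to 500 bp it was 32.1% (20.3 to 46.0%), so that these shares did not differ beyond counting error.

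The summit seldom lay on the stretch between closely spaced starts. Where the genes did not overlap, 59 of 346 summits (17.1%) lay between the starts, and with 250 bp or less between them 12 of 270 did. Between starts 0 to 100 bp apart there was 1 summit of 168, whereas over 250 and up to 500 bp there were 31 of 56 (55.4%) and over 500 and up to 1000 bp 13 of 17 (76.5%). A wider gap also leaves more room for a summit. Of all 509, 202 lay past the start of the plus-strand gene, 190 past that of the minus-strand gene and 117 between the starts or in the overlap. The counts past either start were thus close. Summits past a start lay a median of 205.5 bp (quartiles 128.8 and 333.2 bp) into the gene whose start they had passed, or 176 bp (quartiles 109 and 261 bp) where the genes did not overlap. Among WT summits at a single gene start, 2120 of 2838 (74.7%) lay inside the gene, at a median of 250 bp. Summits past the plus-strand start had a Tle4cKO partner in 30.2% of cases, those past the minus-strand start in 26.3% and those between in 32.5%, within counting error.

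Partners mostly lay on the same side of the starts, which the 500 bp limit on their distance itself favours. Of the 149 head-to-head summits called in both, the Tle4cKO summit lay in the same zone as the WT summit (past the plus-strand start, past the minus-strand start, or between) in 117 (78.5%, 71.1 to 84.8%). The zones past a start are open-ended. The zone between the starts was often narrow, at 250 bp or less for 270 of the 346 summits whose genes do not overlap. Most partners lay much closer than the 500 bp allowed, which favours the same zone further. No share expected from distance alone was computed to set beside the 78.5%. In 19 gene sets the WT list had 2 shared-end summits, 14 of them head to head and 10 with the summits on opposite sides. None of the 19 had a Tle4cKO partner for both summits, 7 had one for 1 summit and 12 for none. At Zranb3 and R3hdm1, for example, the WT summit inside Zranb3 had a Tle4cKO partner, scoring 3.08 in Tle4cKO and 4.06 in WT, and that inside R3hdm1, at 3.97 in WT, did not. At Pign and Relch neither WT summit, 7.46 and 3.42, was called in Tle4cKO. Pign acts in the making of GPI anchors, and Zranb3 is a DNA translocase. These examples were chosen after their values were seen.

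**Figure D4:**
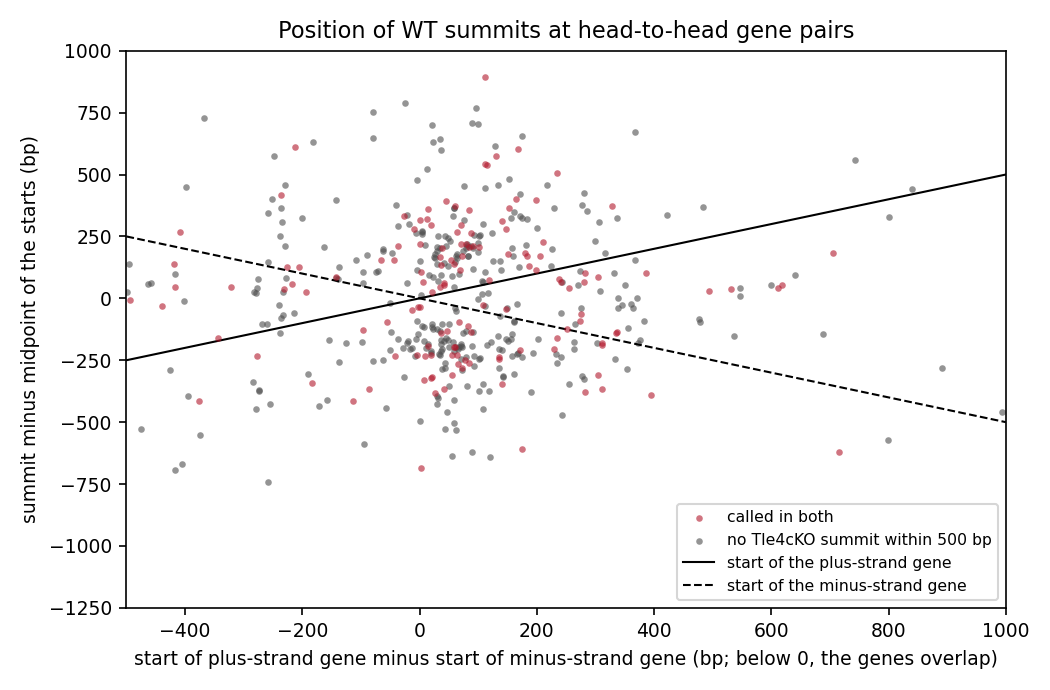
Position of WT summits at head-to-head pairs, with the signed distance between the starts in bp on the horizontal axis and the summit's distance from the midpoint of the starts in bp on the vertical axis; lines mark the starts, and colour shows whether a Tle4cKO summit lay within 500 bp. Of the 468 summits in the plotted range 137 were called in both libraries; at short distances the points fall in a band on each side of the lines, with few between them.

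Counted from the annotation, the same summits gave the same order of shares. Because the summits are the same, this is no separate support, and WT score was not held alike here. RefSeq held 903 head-to-head pairs with strand known and starts at most 1 kb apart. A Tle4cKO summit lay within 1 kb of both starts at 169 of them (18.7%, 16.2 to 21.4%) and a WT summit at 496 (54.9%, 51.6 to 58.2%). Of 13853 gene starts with no other gene end within 2 kb, 675 (4.87%, 4.52 to 5.24%) had a Tle4cKO summit within 1 kb and 2594 (18.7%, 18.1 to 19.4%) had a WT summit. A Tle4cKO summit was found at 155 of the 496 WT-marked pairs (31.3%, 27.2 to 35.5%), against 610 of the 2594 WT-marked lone starts (23.5%, 21.9 to 25.2%). A pair brings the start regions of a pair of genes to 1 place, so a pair and a lone start are not equal units. Across all 21627 protein-coding genes, 6.26% had a Tle4cKO summit at an end and 22.9% a WT summit. Of the WT-marked genes, 24.7% also had a Tle4cKO summit at an end.

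The share with a Tle4cKO partner was lower where the farther of the 2 ends lay over 500 bp from the summit. The intervals of the classes inside the 1 kb limit overlapped, and no interval of their differences was computed. With that end within 250 bp of the summit, 75 of 268 shared-end summits (28.0%, 22.7 to 33.8%) had a Tle4cKO partner. At 250 to 500 bp 95 of 316 (30.1%, 25.1 to 35.4%) had one, and at 500 to 900 bp 36 of 176 (20.5%, 14.8 to 27.2%). The median WT scores of these classes were, in order, 6.11, 5.15 and 4.64, so distance was not separated from score. Just inside the 1 kb limit, at 900 to 1000 bp, it was 6 of 30 (7.71 to 38.6%) with a median WT score of 5.11. Just outside, at 1000 to 1100 bp, it was 4 of 31 with a median WT score of 4.83.

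The promoters of these pairs were rich in G, C and CpG. The window was 300 bases, 250 before and 50 after the start of the plus-strand gene, and 495 head-to-head pairs with a shared-end summit had an entry. The median G and C content was 62.3%, against 60.7% at 2756 genes with a WT summit at a single gene start and 56.3% at all 17273 genes with an entry. CpG dinucleotides occurred at a median of 8 per 100 bases, against 7 at single starts and 4.67 at all genes. In a head-to-head pair the window also takes in part of the start region of the other gene.

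Letter matches for ETS factors were more frequent than at single starts. CCGGAAG, on either strand, was found in 149 of the 495 windows (30.1%, 26.1 to 34.4%), against 21.7% (20.2 to 23.3%) of single-start windows and 12.1% of all windows. TATAAA was found in 4.65%, against 6.31% of single-start windows and 13.4% of all. GGGCGG was found in 67.1%, against 65.9% and 46.9%, and GCATGCG in 8.89%, against 8.24% and 4.54%. CCAAT stood at 38.2%, against 40.8% of single-start windows and 39.6% of all. AAGATGG (YY1) was found in 9.49%, against 7.91% and 6.40%, and TGACGTC (the cAMP response element) in 6.67%, against 7.08% and 4.04%. The letters of factors known for macrophage enhancers were not more frequent here: GAGGAAG (PU.1) stood at 11.7%, against 14.1% and 13.1%, and TGANTCA (AP-1) at 3.03%, against 4.68% and 7.09%. GAGGAAG and CCGGAAG end alike and can overlap in part.

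Within the head-to-head pairs these matches did not separate the pairs called in Tle4cKO. A pair with 2 shared-end summits was classed by the summit with the lower coordinate. Pairs whose other summit alone had a partner, such as Kif1c and Inca1, therefore count as without. CCGGAAG was found in 39 of 146 windows with a Tle4cKO partner (26.7%, 19.7 to 34.7%) and in 110 of 349 without (31.5%, 26.7 to 36.7%). GGGCGG was found in 70.5% with a partner and 65.6% without. The median G and C content was 62.3% with a partner and 62% without. The intervals overlapped for each of the 9 motifs searched.

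Which genes sat at shared-end summits was described with 19 gene lists. Over all protein-coding genes, 7.14% lay at a shared-end summit, and 27.6% of those genes had a summit with a Tle4cKO partner. Of the genes with any WT gene-end summit, 31.2% had a shared-end one. Lists of DNA repair, mitochondria and RNA processing stood above the 7.14%, while lists of macrophage and signalling genes stood near or below it. Head-to-head arrangement in the annotation ran alongside: 36.0% of the DNA repair genes and 34.6% of the mitochondrial ribosome genes lie in such a pair, against 8.30% of all genes and 4.29% of the Groucho, Notch and Wnt genes.

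DNA repair and replication genes lay at shared-end summits in 31 of 89 cases (34.8%), and 9 of the 31 had a Tle4cKO partner. Of the list's genes with any WT gene-end summit, 66.0% had a shared-end one. Besides Fancm, Brca1, Xrcc4 and Rpa3, which act in recombination, end joining and the binding of single-stranded DNA, had partners. These 3 were chosen from the list after their values were seen. Nhej1 and Fen1 had the highest WT scores of the list without a partner.

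Mitochondrial genes were well represented. For the mitochondrial ribosome it was 21 of 78 genes (26.9%), 7 of them with a partner. Mrps11 and Mrpl46 encode proteins of its small and its large subunit and share a promoter of 43 bases, with a Tle4cKO score of 9.002 and a WT score of 14.6. Mrps18b beside Ppp1r10, a regulator of protein phosphatase 1, had 4.55 in Tle4cKO and 14.5 in WT. Mrps5 beside Zfp661 (WT 10.0) and Mrpl57 beside Ska3, a kinetochore protein (WT 9.26), had none. For the respiratory chain it was 30 of 87 genes (34.5%), 6 of them with a partner. The list lacks some genes of the respiratory chain and its assembly, and the examples here were chosen after their values were seen. Of these, Bcs1l beside Zfp142 (3.13 in WT) and Coa3 beside Cntd1 (3.35 in WT) had no partner, while Ndufb1 and Uqcr10 had one. Ndufb1 beside Cpsf2 had 5.02 in Tle4cKO and 10.4 in WT, and Uqcr10 beside Zmat5 had 3.24 in Tle4cKO and 5.89 in WT. Uqcrh of complex III beside Lrrc41 had 3.50 in Tle4cKO and 10.5 in WT. Ndufb3 (WT 10.8) and Ndufa4 (WT 9.89) had no Tle4cKO partner.

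Genes of RNA and protein handling followed. Splicing and RNA processing had 23 of 74 genes (31.1%) at a shared-end summit, 4 with a partner. Srsf11, an SR protein, beside Lrrc40 scored 9.19 in WT with no partner. Of the aminoacyl-tRNA synthetases it was 10 of 37, 5 with a partner, the highest being the mitochondrial enzyme Fars2 beside Lyrm4, with 6.88 in Tle4cKO and 12.1 in WT. For chaperones it was 14 of 63, 6 with a partner. Proteasome, COP9 and ubiquitin ligation genes had 14 of 86 (16.3%), and 7 of these had a partner. For the cytosolic ribosome it was 11 of 79 (13.9%), 6 with a partner, Rpl4 beside Zwilch having 2.98 in Tle4cKO and 11.4 in WT. ER and Golgi traffic had 16 of 70, 4 with a partner, led by Sec61b, a subunit of the translocon, beside Alg2, with 4.71 in Tle4cKO and 12.9 in WT. With so few genes a list, the intervals of these partner shares all include the 27.6% of the background. Among genes with any WT gene-end summit, the shared-end share was 50% for splicing and RNA processing and for aminoacyl-tRNA synthetases. It was 35% for chaperones and 33.3% for ER and Golgi traffic, against 31.2% of all such genes. It was below that for proteasome, COP9 and ubiquitin ligation (24.6%) and the cytosolic ribosome (22%).

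Lysosome and autophagy genes, which macrophages use heavily, had 13 of 72 (18.1%) at a shared-end summit, 6 of them with a partner. Of the list's genes with any WT gene-end summit, 32.5% had a shared-end one, against 31.2% of all such genes. Atg13, of the complex that starts autophagy, beside Harbi1 had 5.88 in Tle4cKO and 13.01 in WT. Atg12, a ubiquitin-like autophagy protein, beside Ap3s1 had 8.45 in Tle4cKO and 11.8 in WT. Atg3, the enzyme that conjugates LC3 to lipid, beside Slc35a5 scored 9.29 in WT and had no partner, nor had the lysosomal galactosidase gene Gla (7.06 in WT).

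Signalling and immune lists stood near the 7.14% of all genes or below it. NF-kB and Toll-like receptor signalling had 4 of 49 (8.16%), of which Ikbkg, which encodes NEMO, the regulator of IkB kinase (3.99 in Tle4cKO and 8.31 in WT), and Ripk1, a kinase of TNF signalling (3.40 in Tle4cKO and 6.05 in WT), had a partner. Nfkbib and Irak4 did not. Interferon, IRF and STAT genes had 3 of 52 (5.77%), the highest at Ifit1 and Ifit1bl2 (7.06 in WT), and antigen presentation 3 of 29 (10.3%), and none of these had a partner. Of the macrophage identity genes 1 of 34 (2.94%) lay at a shared-end summit, with no partner. Of the Groucho, Notch and Wnt list 4 of 70 (5.71%) lay at a shared-end summit. These were Ncstn, the corepressor gene Ncor1 (5.85 in WT), the deacetylase gene Hdac3 (4.80 in WT) and Csnk2b, a casein kinase subunit (4.94 in WT). No Tle4cKO partner was called at any of the 4, for which the exact 95% upper bound is 60.2%. The 10 histone genes came down to 5 summits, with WT scores of 2.94 to 7.82 and no partner. Histone genes have near-identical copies, so which copy such a summit belongs to is uncertain.

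Textbook bidirectional promoters were checked by name. Of 10 such pairs, 8 had a shared-end summit. A Tle4cKO partner was found at 2 of the 8, among them Npat and Atm (2.49 in Tle4cKO and 6.43 in WT). Atm is the DNA damage kinase and Npat a regulator of histone genes. Ppat and Paics of purine synthesis (6.37 in WT), Prkdc and Mcm4 (5.68), Tap1 and Psmb9 of peptide processing for MHC class I (4.44), Surf1 and Surf2 (4.30), Mrps12 and Sars2 (4.28) and Hspe1 and Hspd1, the mitochondrial chaperonins (3.37), were called in WT alone. The WT scores of these 6 lay below 7.69, the median WT score of the summits with a partner. So did the 6.43 of Npat and Atm, which had a partner. Among all shared-end summits 26.8% had one.

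**Figure D5:**
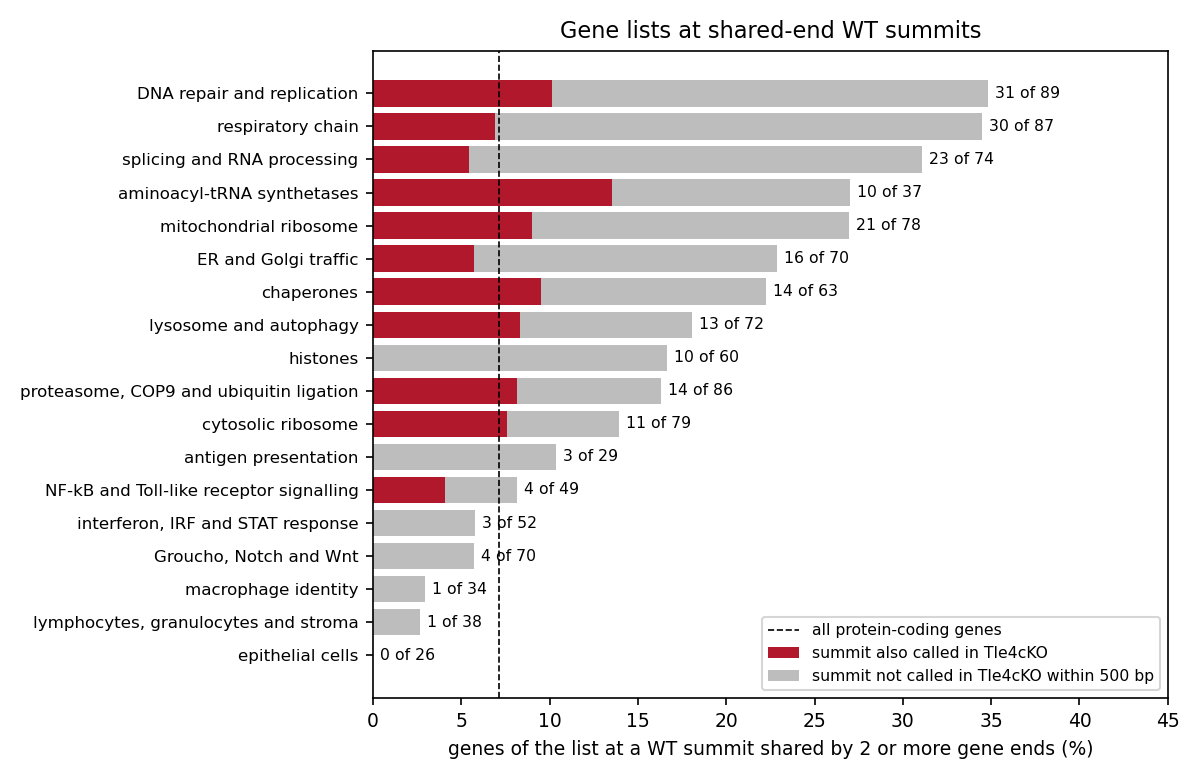
Share of 18 gene lists (%) that lay at a WT shared-end summit, split into genes whose summit had a Tle4cKO partner within 500 bp and genes whose summit had none; numbers are genes of the list matched to RefSeq, and the dashed line is the share of all protein-coding genes (7.14%). The list of textbook head-to-head pairs (80%) is not drawn. Of those drawn, DNA repair (34.8%) and the respiratory chain (34.5%) stand at the top and the lists of other cell types at the bottom.

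Marker genes of cell types gave little to check the sort by. Of 14 macrophage markers, 0 had a gene-end summit in Tle4cKO and 4 in WT (Cx3cr1, Fcgr1, Cd14 and Cd68), none of them at a shared-end summit, while Csf1r and Adgre1 had none in either library. Of the epithelial (8), neutrophil and eosinophil (6) and stromal and endothelial (5) markers, 0 had one in either library. Of 7 T and B cell markers 1, Cd4, had a WT summit, shared with Gpr162 at a score of 2.80, near the bottom of the list at rank 9159.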

How the data were processed

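H3K27ac CUT&Tag was measured in 1 pooled library per genotype. Per the submitters' processing notes, the authors used cutadapt 1.14 and Bowtie2 2.2.5 with mm10. The sources used here do not name the peak caller or give its settings or the depth. The deposited lists hold 1-bp summits, and the deposited score was read as a −log10 p- or q-value, since the lowest scores (1.37 in Tle4cKO, 1.35 in WT) exceed 1.30 by little, and 1.30 is the −log10 of 0.05. Whether it is a p- or a q-value was not stated. Such scores grow with depth, so they rank summits within 1 list.

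Gene ends came from the RefSeq gene table of GRCm38.p6, the assembly of mm10, for 21627 protein-coding genes on chromosomes 1 to 19 and X. Strand and promoter sequence came from the RefSeq promoter table, matched by gene for 79.9%, with no entry on chromosome 18. Positions count from 1. A partner was a summit of the other list within 500 bp. Intervals are exact Clopper-Pearson 95% intervals; those of differences combine them, and those of medians come from order statistics. Intervals and limits cover counting error only.

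The 790 summits, the gene lists and the motifs were chosen with earlier results of these data known. Summits were named when among the 12 highest WT scores with or without a partner, the 5 highest Tle4cKO scores, the 8 highest at 3 gene ends, the 3 lowest per class or the 2 highest per gene list and class, and not all are printed; some items are not reported here. List symbols Grpel1, Grpel2, H2bc24 and H4c16 were not matched. Alternatives were other windows, partner distances, score minimums, merged summits, autosomes only, predicted genes left out, a shortened WT list and weighting by score. The steps were tested on simulated data. Python 3.11.15, NumPy 2.4.6, pandas 2.3.3 and SciPy 1.17.1 were used.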

Additional observations from a re-analysis of the deposited data

Results flagged for a closer look

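Summits outside chromosomes 1 to 19 and X enter no comparison above. The WT list had 4 summits on the mitochondrial chromosome, which carries no histones, and the Tle4cKO list had 2. The WT count is given because it exceeds 3 counts, and no difference between the libraries is read from it. On the Y chromosome the Tle4cKO list had 9 summits and the WT list 14, and both mouse groups were male. None of these lay at the ends of 2 or more genes.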

How the results depend on the processing

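Of the 30 alternatives run for 5 results, 12 concerned the difference in partner share and 2 the difference in median WT score. Both differences kept their sign under these. The count, the share and the median have no direction to keep. Of the 30, 24 stayed within the interval of the reported value or, for the count of shared-end summits (584 to 1031, 790 as reported), within 1.5 times. The share with a Tle4cKO partner, 26.8% as reported, was 19.2% with partners within 200 bp, 23.4% with a gene-end window of 2 kb, 39.9% at WT scores of at least 5 and 70.2% at scores of at least 10. The difference from single-gene ends, 5.23 points, ran from 1.82 (window of 2 kb) to 7.32 points. The last is the head-to-head comparison with single gene starts, which was chosen after seeing the data and came to 3.97 with weighting by score. Weighting by score left 2.82 points for all shared-end summits, and neither weighted difference has an interval. The median WT score, 5.29, was 5.58 with a window of 500 bp. The difference in median WT score from single-gene ends, 0.30, was 0.26 with a window of 2 kb and 0.46 with 500 bp. Outside these results, the share of each list at 2 or more gene ends was higher in Tle4cKO (9.95%) than in WT (7.55%), but lower than the 12.3% of the WT list cut to 2341 summits. The cause of these shifts was not tested, except that higher score minimums keep fewer summits. No paired analysis was possible because each genotype has 1 library. The depth is unknown, so whether an uncalled summit carries signal under the calling threshold cannot be told, and no difference has a replicate check.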

Other observations

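Of the 233 Tle4cKO summits at 2 or more gene ends, 24 had no WT summit within 500 bp, and 18 of these were head to head. For 7 of the 24 a WT summit lay 521 to 641 bp away, just past the limit, and for 17 the nearest lay beyond 5 kb. The highest Tle4cKO score among them, 7.31 (rank 320), belonged to Grk4, a kinase of G protein-coupled receptors, and Nop14, a ribosome assembly factor, with a WT summit 565 bp away. Dnajc30 and Bud23, a methyltransferase of ribosomal RNA, had a Tle4cKO score of 6.46 and the nearest WT summit 54429 bp away. Poglut2 and Bivm scored 5.71 in Tle4cKO with 16722 bp to the nearest WT summit. Dtl, a substrate receptor of the CUL4 ubiquitin ligase, and Ints7, a subunit of the Integrator complex, scored 5.09 in Tle4cKO with 20214 bp. Sirt3, the mitochondrial deacetylase, and Psmd13, a proteasome subunit, scored 4.55 in Tle4cKO with 7559 bp. These pairs were chosen after their values were seen, and a single library per genotype gives no test of them.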
